A study of Salmo salar with 12 samples.

Results

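The microRNAs described here are the mature forms named ssa-miR-15, ssa-miR-16, ssa-miR-103 and ssa-miR-107 in small RNA libraries of adherent salmon cells. Of the 361 mature miRNAs in the deposited table, 12 carry one of these names, and 9 of those were taken as members because their counts summed over all libraries reached at least 500. Since the summed count chose the members, their abundance is given as a description only. The members are ssa-miR-15a-5p, ssa-miR-15b-5p, ssa-miR-15c-5p, ssa-miR-15d-5p, ssa-miR-16a-5p, ssa-miR-16b-5p, ssa-miR-16c-5p, ssa-miR-103-3p and ssa-miR-107-3p. The member with the lowest sum was ssa-miR-15b-5p, with 885 counts. The highest sum below the limit was that of ssa-miR-103-5p, the other arm of the miR-103 hairpin, with 163 counts, all of them in AIC replicate 4. The other names outside the limit were ssa-miR-15e-5p, with 2 counts, and ssa-miR-107-5p, which was listed at 0 in every library.

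The libraries came from Atlantic salmon (Salmo salar) post smolts that weighed 550 g on average and had been starved for 24 h, and no treatment is described for either group. Leukocytes isolated from the distal intestine or the head kidney were left to adhere for 2 days at 12°C, and the cells that stayed attached gave the adherent intestinal cells (AIC, n = 6 libraries) and the adherent head kidney cells (AKC, n = 6 libraries, the macrophage-like reference). Each library is a whole adherent pool that was not sorted further, so in these bulk samples fewer cells of a type and less RNA per cell cannot be told apart. Both organs were dissected from the same 6 fish, so the groups share animals, but no source says that libraries of the same number came from the same fish. The groups were therefore compared without pairing, and the p-values weigh a group difference against the spread between these libraries. Such a comparison treats all libraries as independent, although the groups share fish.

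A microRNA pairs with messenger RNAs mainly through its seed, a short stretch near its 5′ end, and lowers their translation or stability. The miR-15 and miR-16 families share one seed and are usually transcribed together from clusters. In mammals they restrain cell division and survival through cyclins, cyclin-dependent kinases and Bcl2, and loss of such a cluster is a common event in chronic lymphocytic leukaemia. The miR-103 and miR-107 families share a related seed that is displaced by a base, and in vertebrates they lie in introns of pantothenate kinase (pank) genes. In mice they were linked to insulin sensitivity, and in human cells to repression of Dicer, the enzyme that cuts microRNA precursors.

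Library totals were 2253241 to 11804738 counts for AIC and 5791813 to 19586478 counts for AKC. Normalized counts are given as CPM, counts per 1000000 of a library size scaled with TMM factors, which assume that most miRNAs keep their level. The AIC factors (0.528 to 1.0005) were all below the AKC factors (1.05 to 1.79), so the scaling itself separated the groups. At these depths 3 counts, taken as the smallest countable signal, were at most 1.59 CPM in AIC and 0.492 CPM in AKC, a floor that covers counting error only. Of the marker lists, the epithelial miRNAs summed to between 249267 and 478126 CPM in AIC and to between 58.5 and 245 CPM in AKC. Nearly all of this sum was ssa-miR-375, a miRNA of endocrine cells, with 237709 to 466192 CPM in AIC and 58.2 to 172 CPM in AKC. The ssa-miR-200 rows, broader epithelial markers, summed to 3540 to 4851 CPM in AIC and to at most 33.8 CPM in AKC. Of the 19 rows on the epithelial list 5 had no count in any library, and ssa-miR-141 had none. The leukocyte miRNAs summed to between 2682 and 30319 CPM in AIC, with a median of 6233 CPM. In AKC they summed to between 9072 and 24307 CPM, with a median of 17959 CPM. However, ssa-miR-142, one of their defining members, reached at most 38.1 CPM in AIC and was listed at 0 in all AKC libraries. For ssa-miR-223, another, there was no entry. The most abundant was ssa-miR-150-5p, with means of 11239 CPM in AIC and 15179 CPM in AKC and overlapping groups. ssa-miR-146a-5p (198 and 354 CPM) overlapped too. ssa-miR-155-5p, with means of 179 and 1931 CPM, had every AIC library below every AKC library, as 10.5% of all miRNAs tested had. The 2 rows of the erythroid ssa-miR-144 were listed at 0 throughout. Endothelial and stromal miRNAs summed to at most 190 CPM in AIC (median 0) and 111 CPM in AKC (median 39.0 CPM). Muscle miRNAs summed to at most 63.9 CPM in AIC and 9.90 CPM in AKC, with a median of 0 in both. The part of the ssa-miR-375 and ssa-miR-200 signal in the values below was not tested.

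Together, the counts on ssa-miR-15 and ssa-miR-16 made up 0.0900% to 0.363% of an AIC library and 0.406% to 0.868% of an AKC library. Every AIC library therefore lay below every AKC library in this summed share. A share of all counts also depends on the other miRNAs. With total counts alone the median log2 fold change of AIC over AKC was -0.65 over all 76 miRNAs tested. Taken singly, 0 of the 6 members that passed a low-count filter showed such a separation in their share of all counts, against 18.4% of the 76 miRNAs that passed it. The remaining members, ssa-miR-15b-5p, ssa-miR-15d-5p and ssa-miR-107-3p, were at 0 in libraries of both groups and so could not show it. ssa-miR-15c-5p came close, with at most 0.211% of an AIC library and at least 0.198% of an AKC library. After TMM scaling the AIC libraries summed to 2863 ± 1192 CPM (SD, n = 6) and the AKC libraries to 4720 ± 930.3 CPM (SD, n = 6), and the groups overlapped. The counts on ssa-miR-103 and ssa-miR-107 were far fewer, between 0.00332% and 0.0270% of an AIC library and between 0.000127% and 0.0351% of an AKC library, with overlapping groups.

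**Figure D1:**
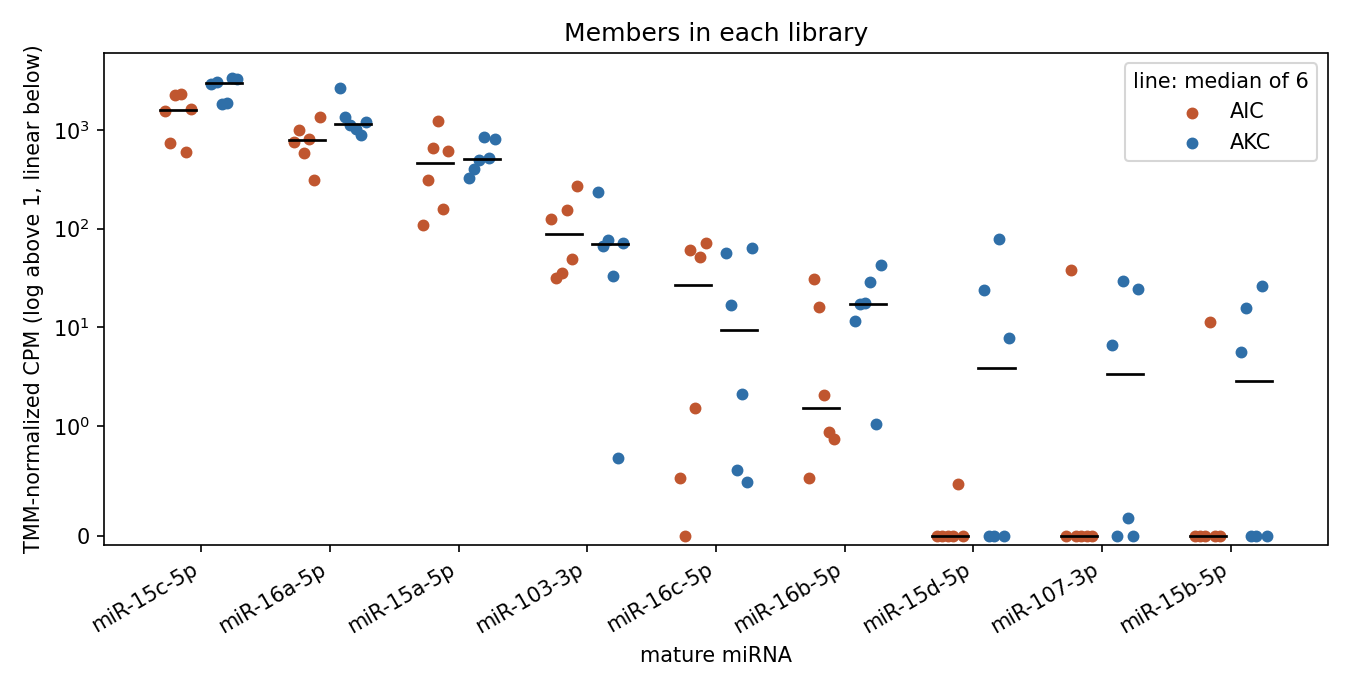
TMM-normalized CPM of the 9 members (vertical axis, logarithmic above 1 and linear below) in each of 6 AIC and 6 AKC libraries, with the median of each group as a line. ssa-miR-15c-5p, ssa-miR-16a-5p and ssa-miR-15a-5p lie above 100 CPM in all 12 libraries, while ssa-miR-15b-5p, ssa-miR-15d-5p and ssa-miR-107-3p are at 0 in most AIC libraries.

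ssa-miR-15c-5p was the most abundant member. In AIC it ranged from 599.7 CPM in replicate 5 to 2291 CPM in replicate 4, with a median of 1582 CPM. In AKC it ranged from 1847 CPM in replicate 3 to 3333 CPM in replicate 5, with a median of 2975 CPM. The groups overlapped, because AIC replicates 3 and 4 were above AKC replicates 3 and 4. In deposited counts these levels rested on 1264 to 16488 reads in AIC and 11475 to 82698 reads in AKC. The mean of AIC was 1507 ± 718 CPM (SD, n = 6) and that of AKC 2715 ± 678 CPM (SD, n = 6). The log2 fold change of AIC over AKC was -0.85 (standard error 0.37, 95% confidence interval -1.63 to -0.07). It was not called, at an adjusted p of 0.0961 (edgeR's quasi-likelihood test, Benjamini-Hochberg adjustment over the 76 miRNAs tested). Calls required an adjusted p under 0.05 together with a log2 fold change of 1 or more in size.

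ssa-miR-16a-5p carries the miR-16 name of the same seed family and was second in abundance. Its lowest, median and highest levels were 314.5, 788 and 1337 CPM in AIC and 891.9, 1155 and 2632 CPM in AKC. AKC replicate 1 stood above all others, and AIC replicates 2 and 6 reached into the AKC range. AIC had a mean of 801 ± 351 CPM (SD, n = 6) and AKC one of 1369 ± 639 CPM (SD, n = 6), and the log2 fold change was -0.77 (standard error 0.42, 95% confidence interval -1.66 to 0.12, adjusted p = 0.177 in the same edgeR fit).

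ssa-miR-15a-5p, another member of the miR-15 seed family, was lower still and more variable in the intestine. It ran from 108 CPM in AIC replicate 1 to 1229 CPM in AIC replicate 4 (median 464 CPM), an 11.4-fold range. In AKC it ran from 327 to 852 CPM (median 505 CPM), a 2.61-fold range that lay wholly inside that of AIC. Its log2 fold change was -0.14 (standard error 0.59, 95% confidence interval -1.39 to 1.11, adjusted p = 0.889, edgeR), an interval that leaves room for a 2-fold difference either way.

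The less abundant members of the seed family were found in some libraries and nearly missing from others of the same group. ssa-miR-16b-5p had a median of 1.52 CPM in AIC, where it exceeded 3 counts in 3 of 6 libraries, and 17.4 CPM in AKC, where it did so in 6 of 6. After all libraries were thinned to the smallest total, it did so in 2 of 6 AIC and 5 of 6 AKC libraries. Its lowest and highest levels were 0.530 and 30.7 CPM in AIC and 1.06 and 43.4 CPM in AKC, so the groups overlapped. ssa-miR-16c-5p ran from 0 to 71.5 CPM in AIC (median 26.6 CPM) and from 0.496 to 64.4 CPM in AKC (median 9.51 CPM). In either group it was at 16.9 CPM or more in 3 libraries and at 2.13 CPM or less in the other 3. The fold changes of both were accordingly wide, -1.22 (95% confidence interval -4.24 to 1.81) for ssa-miR-16b-5p and 0.39 (95% confidence interval -3.07 to 3.85) for ssa-miR-16c-5p (adjusted p = 0.616 and 0.889, edgeR).

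ssa-miR-15d-5p and ssa-miR-15b-5p fell below the low-count filter and were not tested in that fit. ssa-miR-15d-5p held 679, 484 and 128 counts in AKC replicates 1, 4 and 6, no count in the other AKC libraries, and 1 count in a single AIC library. In all 6 AIC libraries it was thus at or below the floor. ssa-miR-15b-5p held 163, 270 and 370 counts in AKC replicates 1, 2 and 5 and 82 counts in AIC replicate 4, with 0 in every other library. When all libraries were thinned to the smallest total, the number of libraries above 3 counts stayed at 3 of 6 in AKC for both, at 0 of 6 in AIC for ssa-miR-15d-5p and at 1 of 6 in AIC for ssa-miR-15b-5p. Only AKC replicate 1 held more than 3 counts of both.

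Among themselves the abundant members kept much the same order in both kinds of cells. ssa-miR-15c-5p exceeded ssa-miR-16a-5p in 5 of 6 AIC libraries and in 6 of 6 AKC libraries, the exception being AIC replicate 2. It exceeded ssa-miR-15a-5p in all 12. ssa-miR-16a-5p exceeded ssa-miR-15a-5p in 6 of 6 AKC libraries but in 4 of 6 AIC libraries, so these neighbours did not keep a fixed order in the intestine. ssa-miR-16c-5p and ssa-miR-16b-5p had no fixed order in either group, with ssa-miR-16c-5p higher in 3 of 6 AIC and 2 of 6 AKC libraries. Counts of different miRNAs also reflect how well each is ligated and amplified, which was not measured.

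The makeup of the miR-15 and miR-16 counts does not depend on how libraries are scaled. ssa-miR-15c-5p made up 52.2% ± 10.9 of them in the intestine and 57.3% ± 8.53 in the head kidney (SD, n = 6 each). For ssa-miR-16a-5p the shares were 29.8% ± 11.7 and 28.6% ± 8.94, and for ssa-miR-15a-5p 16.2% ± 7.67 and 12.6% ± 5.86, in the same order (SD, n = 6 each). The differences between groups were smaller than the spread within them. Single libraries departed from this makeup. In AIC replicate 1 ssa-miR-15a-5p made up 4.47% of the counts and in AIC replicate 4 it made up 28.2%. In AIC replicate 2 and AKC replicate 1 ssa-miR-16a-5p made up 47.9% and 44.2%.

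**Figure D2:**
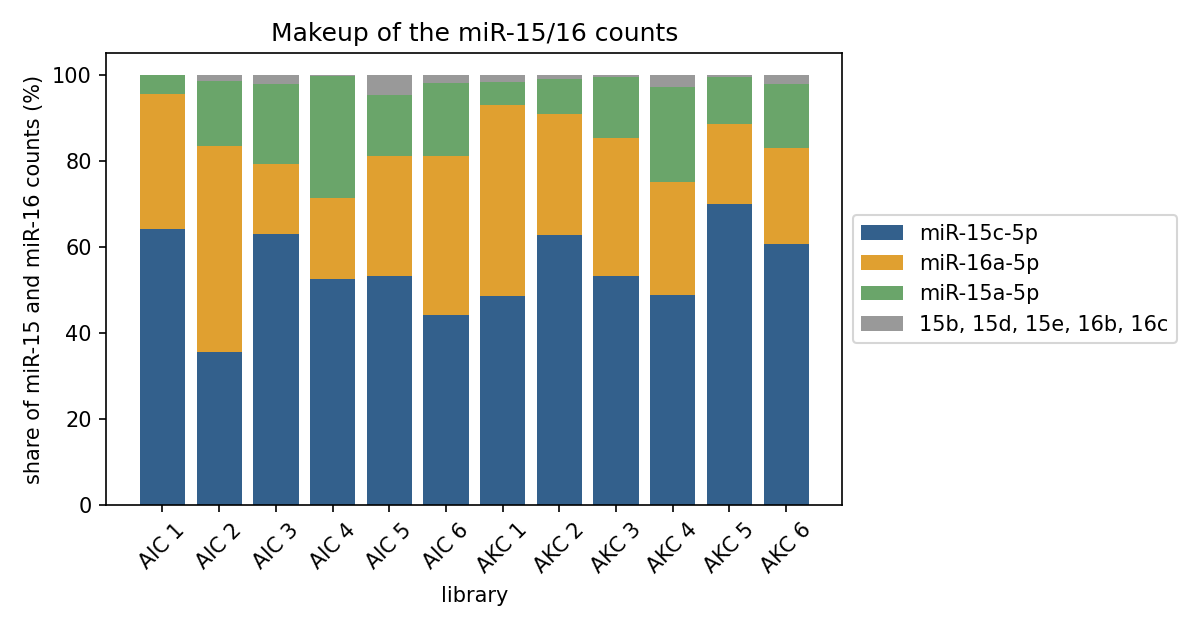
Makeup of the summed miR-15 and miR-16 counts (vertical axis, %) in each of the 12 libraries (horizontal axis). ssa-miR-15c-5p, ssa-miR-16a-5p and ssa-miR-15a-5p are drawn singly, and the rarer names, ssa-miR-15e-5p included, are pooled. ssa-miR-15c-5p ranges from 35.6% in AIC replicate 2 to 69.9% in AKC replicate 5, and the pooled names never exceed 4.72%.

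The ratio of ssa-miR-15c-5p to ssa-miR-16a-5p within a library was likewise free of the scaling. It spanned 0.744 to 3.89 in AIC and 1.10 to 3.74 in AKC, with means of 2.10 ± 1.13 and 2.22 ± 0.922 (SD, n = 6 each). The AKC range lay wholly inside the AIC range.

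ssa-miR-103-3p was the fourth member by summed count and the most abundant of the miR-103 and miR-107 names. In AIC its lowest, median and highest levels were 31.7, 88.3 and 271 CPM, the highest in replicate 6. In AKC they were 0.708, 69.4 and 234 CPM. The low value was AKC replicate 5 with 10 counts, while the other AKC libraries held between 201 and 6682 counts, the most in replicate 1. All AIC libraries but replicate 6 lay within the AKC range. The log2 fold change was 0.47 (standard error 1.01, 95% confidence interval -1.68 to 2.62, adjusted p = 0.770, edgeR). Even its direction rested on a single library, since without AIC replicate 6 the log2 fold change was -0.28. In that fit the median over all miRNAs tested moved as well, to -0.29 from 0.09 with all libraries.

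ssa-miR-107-3p, of the same seed as ssa-miR-103-3p, also fell below the filter. It held 159 counts in AIC replicate 2 and 0 in the other AIC libraries. In AKC it held 189, 388 and 399 counts in replicates 1, 3 and 6, 1 count in replicate 4 and 0 in the remaining pair. ssa-miR-103-3p was the higher of the 2 in 6 of 6 AKC libraries and in 5 of 6 AIC libraries, and AIC replicate 2 was the exception. Of the other arms, ssa-miR-103-5p had 163 counts in AIC replicate 4 beside 1123 counts of ssa-miR-103-3p, and no count in any other library, including AKC replicate 1 with its 6682 counts of ssa-miR-103-3p.

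The most abundant member of each seed family was compared within libraries by the ratio of ssa-miR-15c-5p to ssa-miR-103-3p, which no library scaling can move. This ratio leaves out the other members. In AIC replicate 2, for example, ssa-miR-107-3p (159 counts) exceeded ssa-miR-103-3p (131 counts). In AIC there were between 5.95 and 63.7 counts of ssa-miR-15c-5p for each count of ssa-miR-103-3p, with a median of 13.5. In AKC there were between 12.4 and 4705, with a median of 45.7. The mean log2 ratio was 4.03 ± 1.15 for AIC and 6.20 ± 3.01 for AKC (SD, n = 6 each). The difference of -2.17 stayed within the spread of the libraries (p = 0.0823 in a two-sided exact permutation test, which with 6 against 6 can reach 0.00216). Without AKC replicate 5 the difference was -0.99 (exact permutation test, p = 0.154). Leaving out either of 2 other libraries brought it past 0.05, to -2.56 without AIC replicate 3 (exact permutation test, p = 0.0281) and to -2.69 without AKC replicate 1 (exact permutation test, p = 0.0238). This ratio was chosen with earlier results of the data known.

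**Figure D3:**
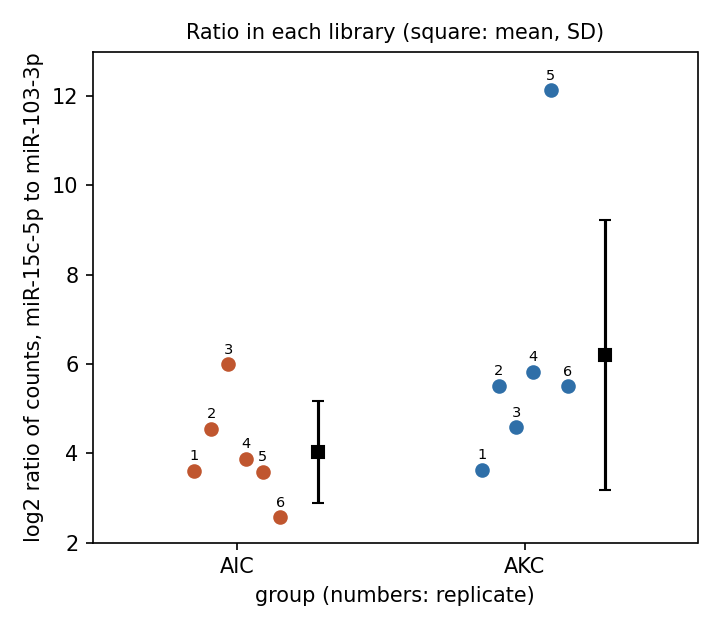
Log2 ratio of the counts of ssa-miR-15c-5p to those of ssa-miR-103-3p (vertical axis) in each AIC and AKC library, numbered by replicate, with the mean and SD of each group as a square and bar. AKC replicate 5 lies at 12.1, apart from the other AKC libraries between 3.63 and 5.83.

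In the whole table, 20 of the 76 miRNAs tested (26.3%) were called between AIC and AKC, of which 7 (9.21%) were lower and 13 (17.1%) higher in AIC. Of the 9 members, 6 passed the low-count filter, and 0 of these 6 were called by edgeR. An unadjusted p below 0.05 was found for 1 of them, ssa-miR-15c-5p (0.0356 in edgeR), and for 42.1% of all miRNAs tested. After TMM scaling 0 of the 6 had all AIC libraries below all AKC libraries, as 10.5% of all miRNAs tested had. DESeq2, the tool of the study, gave an adjusted p for 5 of the 6 members (not for ssa-miR-16b-5p) and called 1 of them, again ssa-miR-15c-5p, as it called 43.4% of the 76 miRNAs. The median log2 fold change was -0.46 over the 6 members and 0.09 over all miRNAs tested, and it was negative in 4 of 6 members and in 48.7% of all miRNAs tested. The list fixed for relatives of these seeds also held the names of miR-195, miR-322, miR-424, miR-457, miR-497 and miR-503, but its rows were the same 12 as above, so it added no values.

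**Figure D4:**
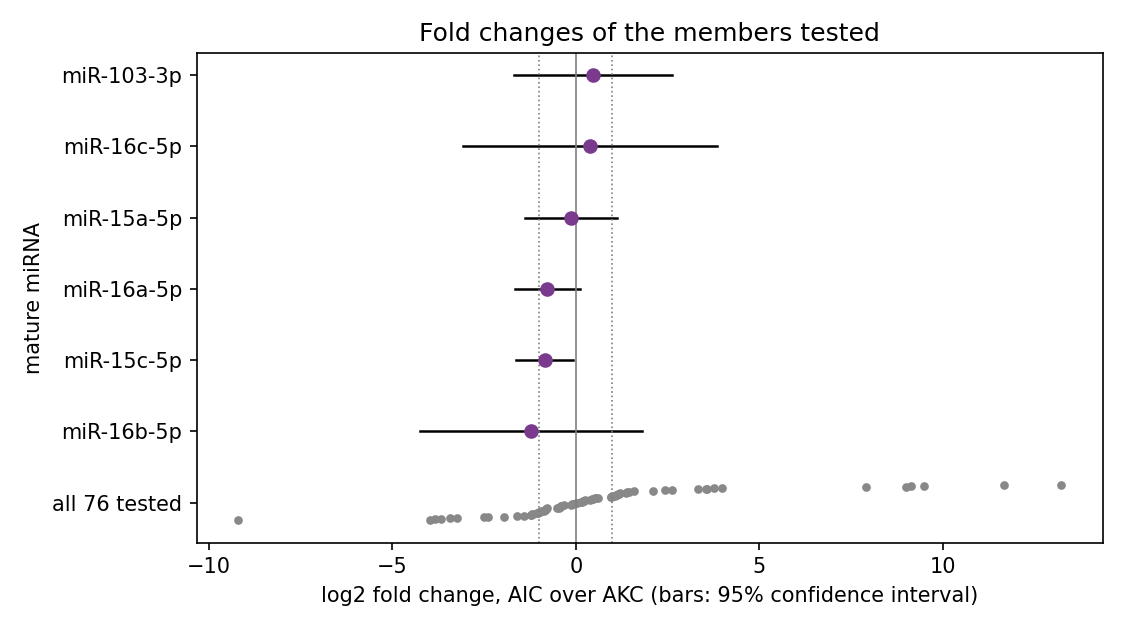
Log2 fold change of AIC over AKC (horizontal axis) for the 6 members that passed the filter, with 95% confidence intervals as bars, above the fold changes of all 76 miRNAs tested as grey points. Dotted lines mark log2 fold changes of -1 and 1. The interval of ssa-miR-15c-5p ends at -0.07, and the other intervals include 0.

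For ssa-miR-15c-5p the call turned on the library scaling. With DESeq2's size factors in the edgeR fit the log2 fold change was -1.06 and it was called lower in AIC (adjusted p = 0.0306), as were 11.8% of the miRNAs tested. DESeq2's own Wald test, which uses the same size factors, gave -1.06 and called it too (adjusted p = 0.00958, 21.1% called lower). With total counts alone it was -1.72 (adjusted p = 0.00512, edgeR, 26.3% called lower), and scaled to the mapped reads it was -2.07 (adjusted p = 0.00233, edgeR, 31.6% called lower). The mapped reads come from a table of the study whose codes were matched to the libraries by group and number, a match that the labels do not state. It stayed uncalled with totals that omit the 5 largest miRNAs (-0.85, adjusted p = 0.0884, edgeR), without a filter (-0.91, adjusted p = 0.111, edgeR), after thinning (-0.89, adjusted p = 0.0913, edgeR) and with the replicate number as a block (-0.98, adjusted p = 0.105, edgeR). ssa-miR-16a-5p was called with total counts and with the mapped reads, at -1.61 (adjusted p = 0.0133, edgeR) and -2.04 (adjusted p = 0.00393, edgeR). With DESeq2 it had an adjusted p of 0.00977 but stayed within the fold limit, at -0.91. The same scalings moved all miRNAs, whose median log2 fold change was -0.06 with DESeq2's size factors, -0.65 with total counts and -1.18 with the mapped reads. Relative to that median, ssa-miR-15c-5p stood at -0.94 with TMM, -1.01 with DESeq2's size factors, -1.07 with total counts and -0.89 with the mapped reads. ssa-miR-16a-5p stood at -0.86, -0.85, -0.96 and -0.86 in the same order. A change of scaling shifts all miRNAs nearly alike, so these distances are bound to stay close and are no separate evidence. ssa-miR-103-3p stood above the median under all 4, by 0.38, 0.55, 0.33 and 0.23, although its own sign changed with total counts and with the mapped reads.

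**Figure D5:**
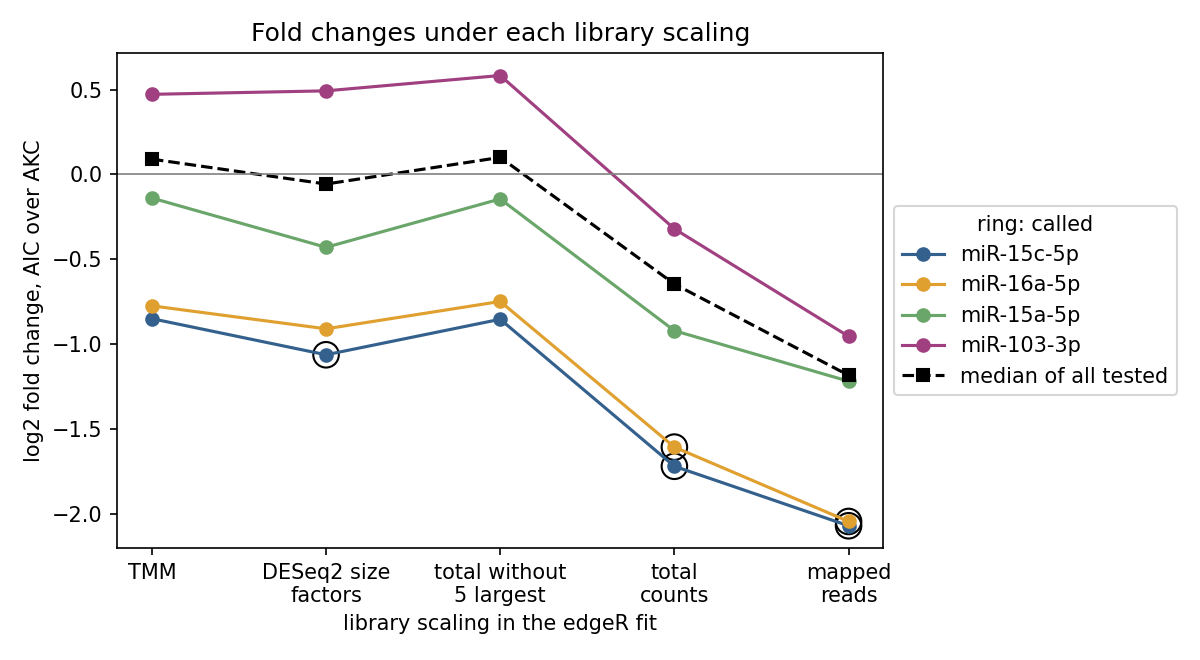
Log2 fold change of AIC over AKC (vertical axis) in the edgeR fit under 5 library scalings (horizontal axis) for the 4 most abundant members, with the median of all miRNAs tested as a dashed line and calls ringed. All lines are lower with total counts and with the mapped reads than with TMM, and ssa-miR-15c-5p moves from -0.85 to -2.07.

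Single libraries also decided calls. Without AIC replicate 3, ssa-miR-15c-5p was called, at -1.12 (adjusted p = 0.0402, edgeR). Without AIC replicate 6, ssa-miR-16a-5p was called, at -1.32 (adjusted p = 0.0323, edgeR). These fits tested 79 and 85 miRNAs, and each called 21, of which 9 were lower in AIC. The median of all miRNAs tested was 0.15 and -0.29 in them. Relative to it, ssa-miR-15c-5p stood at -1.26 without AIC replicate 3, against -0.94 with all libraries. ssa-miR-16a-5p stood at -1.03 without AIC replicate 6, against -0.86 with all libraries. Leaving out each of the 12 libraries in turn, ssa-miR-15c-5p stayed between -1.13 and -0.72 and ssa-miR-16a-5p between -1.32 and -0.76, so both kept a negative sign in every one.

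The patterns most like that of ssa-miR-15c-5p across the 12 libraries, by Pearson's correlation of log2 CPM, were those of ssa-miR-181c-5p (r = 0.75), ssa-miR-93a-5p (r = 0.73) and ssa-miR-92a-5p (r = 0.73). All 3 had a lower mean in AIC, as ssa-miR-15c-5p had, and no other member was among them. Without AIC replicates 2 and 5, the farthest from its median, the correlations were 0.68, 0.80 and 0.69. Within groups, as deviations from the group means, the closest were ssa-miR-26b-5p (r = 0.66), ssa-miR-139-5p (r = 0.61) and ssa-miR-181c-5p (r = 0.52). Without AIC replicates 2 and 5 these were weaker, at 0.53, 0.47 and 0.44. Leaving out libraries far from the median of a miRNA narrows its range, which by itself tends to lower a correlation. The correlation of ssa-miR-15c-5p with ssa-miR-16a-5p was 0.57 across the libraries and 0.33 within groups. With ssa-miR-15a-5p it was 0.52 and 0.47, and with ssa-miR-103-3p -0.13 and 0.07. Of all pairs of tested members, ssa-miR-103-3p and ssa-miR-16a-5p had the highest correlation within groups (0.56, and 0.28 across the libraries). For ssa-miR-103-3p the closest were ssa-let-7e-5p, ssa-let-7g-5p and ssa-let-7f-5p (r = 0.77, 0.77 and 0.72), and these rested on the libraries at the ends of its range. Without AIC replicate 6 and AKC replicate 5 they were -0.21, -0.09 and -0.28. Within groups the same 3 were closest, ssa-let-7g-5p (r = 0.84), ssa-let-7e-5p (r = 0.75) and ssa-let-7f-5p (r = 0.71), and without AIC replicate 2 and AKC replicate 5 these were 0.46, 0.25 and 0.26. All these values share the library scaling, the closest were each picked from 75 others, and all are given as descriptions.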

How the data were processed

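Small RNA of 6 AIC and 6 AKC libraries was sequenced from 50 ng of RNA each, with 25 PCR cycles. The authors used Cutadapt (1.12 per the labels) against adapters and the FASTX-Toolkit against poor reads, then miRDeep2 to map to ICSASG_v2 and to count on the salmon entries of miRBase. They deposited estimated counts per mature miRNA, not scaled for library size. Fractions stood in 12 rows of the table, of which 0 were rows of these families. Mature miRNAs of a family differ by few bases, and how reads that fit several were divided is not given in the sources used here.

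Counts were rounded and tested with edgeR 4.0.16 in R 4.3.3 (filterByExpr with a minimum count of 10, TMM factors, quasi-likelihood test, AIC against AKC), with p-values adjusted over all 76 miRNAs that passed. Standard errors are the fold change over the root of F. DESeq2 1.42.0 was an alternative. Other alternatives were library scalings, filters, thinning to 2253241 counts, the replicate number as a block and leaving out each library. Members under the filter were described by counts. Log2 CPM used a prior count of 2, and ratios an offset of 0.5. The fit was also run on simulated data, whose outcome is not given here and on which no result rests. Named were all rows of the families and, for ssa-miR-15c-5p and ssa-miR-103-3p, the 3 miRNAs of highest correlation. Members, lists and tests were chosen with earlier results of these data known. Coordinates and sequences of the members were not used here. Figures were drawn with Matplotlib 3.10.9.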

Additional observations from a re-analysis of the deposited data

Results flagged for a closer look

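The lowest and highest library of each member, and of the ratio, was compared with the rest of its group in 20 groups of 6 libraries, and 7 had a library far from the others. Chance would give about 1 in 20 for normally distributed values, which was not tested. For CPM with many zeros the rate can differ, and a group with a single library above 0 always meets this rule. That was so for ssa-miR-107-3p in AIC (38.4 CPM in replicate 2), ssa-miR-15b-5p in AIC (11.4 CPM in replicate 4) and ssa-miR-15d-5p in AIC (0.474 CPM in replicate 5, a single count). ssa-miR-103-3p reached 234 CPM in AKC replicate 1, against 76.6 CPM in the next AKC library. ssa-miR-16a-5p reached 2632 CPM in the same library, against 1364 CPM in the next. ssa-miR-15d-5p reached 79.3 CPM in AKC replicate 4, against 23.8 CPM in the next. The log2 ratio of ssa-miR-15c-5p to ssa-miR-103-3p was 12.1 in AKC replicate 5, against 5.83 in the next. Members were compared in CPM, but the ratio in log2 units. In CPM a low library can lie close to the others even when it is many-fold lower. ssa-miR-103-3p in AKC replicate 5, at 0.708 CPM against 32.9 CPM in the next lowest AKC library, was thus not flagged.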

How the results depend on the processing

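Of the 76 miRNAs tested, 20 were called (13 higher and 7 lower in AIC). This became 33 with the mapped reads as library size (9 higher, 24 lower) and 33 with DESeq2's Wald test (17 higher, 16 lower). With total counts 29 of the 76 were called (9 higher, 20 lower). Without a filter on low counts 180 miRNAs were tested and 41 of them called. Of the 6 members tested, 0 were called, beside 20 of all 76 miRNAs. DESeq2's size factors gave 1 member beside 21 of 76 miRNAs, and DESeq2's test 1 beside 33. Total counts gave 2 members beside 29 of 76, and the mapped reads 2 beside 33. The fits without a single library gave 0 or 1 member, beside 18 to 22 of 79 to 86 miRNAs. ssa-miR-103-3p changed sign with total counts (-0.32), with the mapped reads (-0.95) and without AIC replicate 6 (-0.28, with up to 0.99 when other libraries were left out), and ssa-miR-16c-5p with total counts (-0.17), with the mapped reads (-0.90) and with the replicate block (-0.14). The ratio of ssa-miR-15c-5p to ssa-miR-103-3p ran from -2.69 to -0.99 on the log2 scale when each library was left out. The causes of these changes were not tested. Same-numbered libraries showed no shared deviation (mean correlation -0.00143, 0 of 6 pairs above 0.1), and 0 libraries correlated best with their own number. With the replicate block 22 miRNAs and 0 members were called, ssa-miR-15c-5p was at -0.98, and the ratio gave p = 0.156 (exact sign-flip permutation). Depth limits what a count at or below the floor can show for the rare members. Thinning left the number of libraries above the floor unchanged for ssa-miR-15b-5p, ssa-miR-15d-5p and ssa-miR-107-3p. It lowered that number for ssa-miR-16b-5p, from 3 to 2 in AIC and from 6 to 5 in AKC. In AKC it also lowered it from 6 to 4 for ssa-miR-16c-5p and from 6 to 5 for ssa-miR-103-3p.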
